A study of Oryza sativa Japonica Group with 6 samples.

Results

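Plasma membrane intrinsic proteins (PIPs) are the aquaporins of the plant cell surface. Each forms a channel through which water crosses the plasma membrane, and 4 such proteins assemble into a tetramer. Plants have PIP1 and PIP2 classes: in oocyte assays PIP2 proteins of many species conduct water well on their own, whereas PIP1 proteins often need a PIP2 partner to reach the plasma membrane. In leaves and roots PIPs set much of the hydraulic conductance of living cells.

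The genes described here are 7 rice PIP genes, named as in the table's descriptions, with 3 of class PIP1 (PIP1-1, PIP1-2, PIP1-3) and 4 of class PIP2 (PIP2-1, PIP2-2, PIP2-6, PIP2-7). They were taken by locus from a list and kept if their level was at least 1 RPKM (a read count scaled to gene length and library total) in at least 2 of the 6 libraries. All 7 passed, among 19438 loci that did so and 55800 loci in the table. The table describes each of the 7 as the PIP aquaporin of the same number. Of 4 further PIP loci, PIP2-3 (at most 0.388 RPKM) and PIP2-8 (listed at 0 in every library) did not pass, while PIP2-4 and PIP2-5 passed it but are not on the list. A further locus described as PIP2-2, LOC_Os10g34000, reached at most 0.0644 RPKM and did not pass.

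RNA was from the above-ground parts (stems and leaves) of LTH (Lijiangxintuanheigu), a cultivar of japonica rice. Its seedlings, 2 weeks old, were kept for 24 h at 11 °C, 13 °C or 25 °C, in a study of leaf rolling in the cold. There were 2 libraries per temperature, which the submitters call biological replicates. All plants were of this 1 cultivar with no transgene or other treatment named. When the plants were collected is not given in the sources used here. Library totals recovered from the RPKM values were 15.96 to 18.75 M reads, so that 1 read on a gene of 1 kb was worth 0.0533 to 0.0626 RPKM. Libraries of the same temperature correlated at 0.975 (11 °C), 0.972 (13 °C) and 0.958 (25 °C) across genes, which are not independent replicates. Green leaf markers were present in every library, with 6 of 6 above the filter and a summed level of 5508 to 7156 RPKM at 11 °C, 21396 to 21964 RPKM at 13 °C and 33807 to 48366 RPKM at 25 °C. Most of the 25 °C sum was RCA (Rubisco activase), at 27017 and 36629 RPKM, and without it the sum was highest at 13 °C, at 17250 and 17060 RPKM, beside 6790 and 11736 RPKM at 25 °C and 6141 and 4858 RPKM at 11 °C.

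At 25 °C the PIP transcript pool was mostly PIP1-1, and at 11 °C it was mostly PIP2-7. The summed RPKM of the 7 genes was 2721 and 2054 in the 25 °C libraries, 1245 and 1328 in those at 13 °C, and 799 and 685 in those at 11 °C. The pool was therefore lowest in both 11 °C libraries and highest in both 25 °C libraries, with a ratio of means of 3.22 between 25 and 11 °C. Without PIP2-7 the same ratio was 25.9. PIP1-1 made up 68.6% and 70.0% of the pool in the 25 °C libraries, 32.4% and 35.9% in those at 13 °C, and 6.01% and 4.07% in those at 11 °C. PIP2-7 made up 0.232% and 0.223% in the 25 °C libraries, 26.6% and 27.5% in those at 13 °C, and 86.1% and 89.3% in those at 11 °C. The PIP2 class as a whole went from 14.5% and 15.4% of the pool at 25 °C through 50.3% and 49.9% at 13 °C to 90.6% and 93.4% at 11 °C. These sums are descriptions: an exact permutation test of 2 libraries against 2 cannot give a two-sided p below 0.333. As these are bulk samples, fewer cells of a type and less RNA per cell cannot be told apart.

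**Figure D1:**
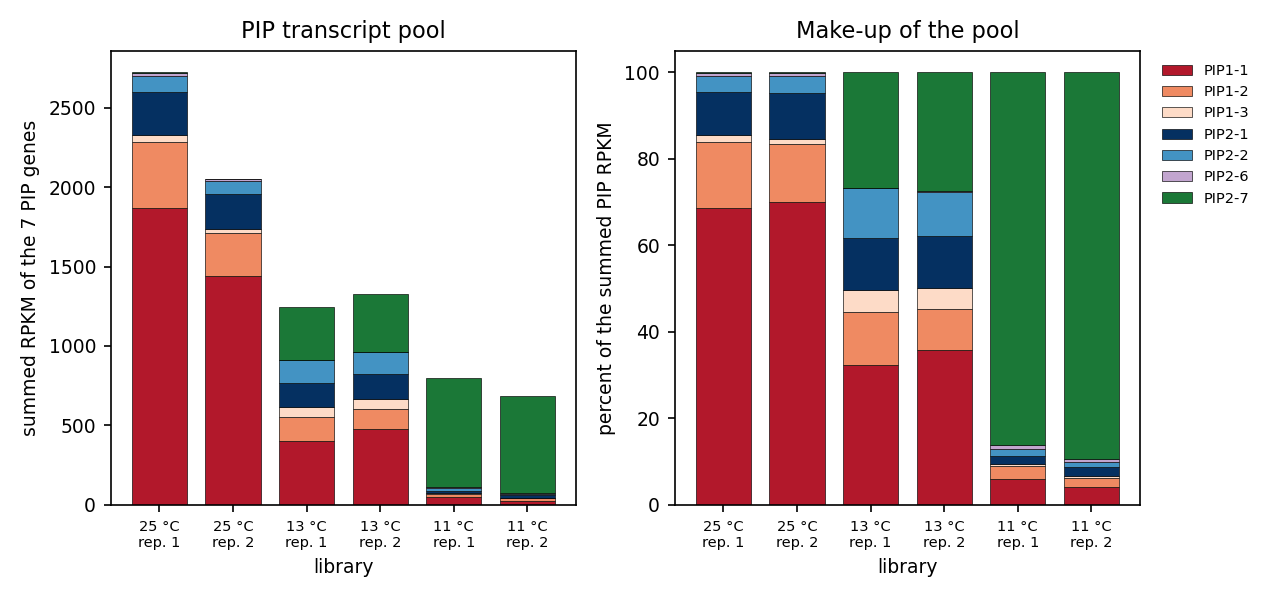
Stacked bars of the 7 PIP genes in each of the 6 libraries, as summed RPKM (left) and as percent of that sum (right). The largest segment is PIP1-1 at 25 °C and PIP2-7 at 11 °C, and at 13 °C the PIP2 class holds 49.9% and 50.3% of the sum.

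Across temperatures the 7 genes took 4 different orders of mean level. PIP1-1, PIP1-2 and PIP2-1 were highest at 25 °C, intermediate at 13 °C and lowest at 11 °C. PIP1-3 and PIP2-2 had their highest mean at 13 °C and their lowest at 11 °C. PIP2-6 was lowest at 13 °C, and PIP2-7 was highest at 11 °C. For all 7 genes the libraries of any pair of temperatures did not overlap. That was also so for 74.6% of all tested genes between 11 and 25 °C, 70.3% between 13 and 25 °C and 68.3% between 11 and 13 °C, so separation alone sets the PIP genes little apart.

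**Figure D2:**
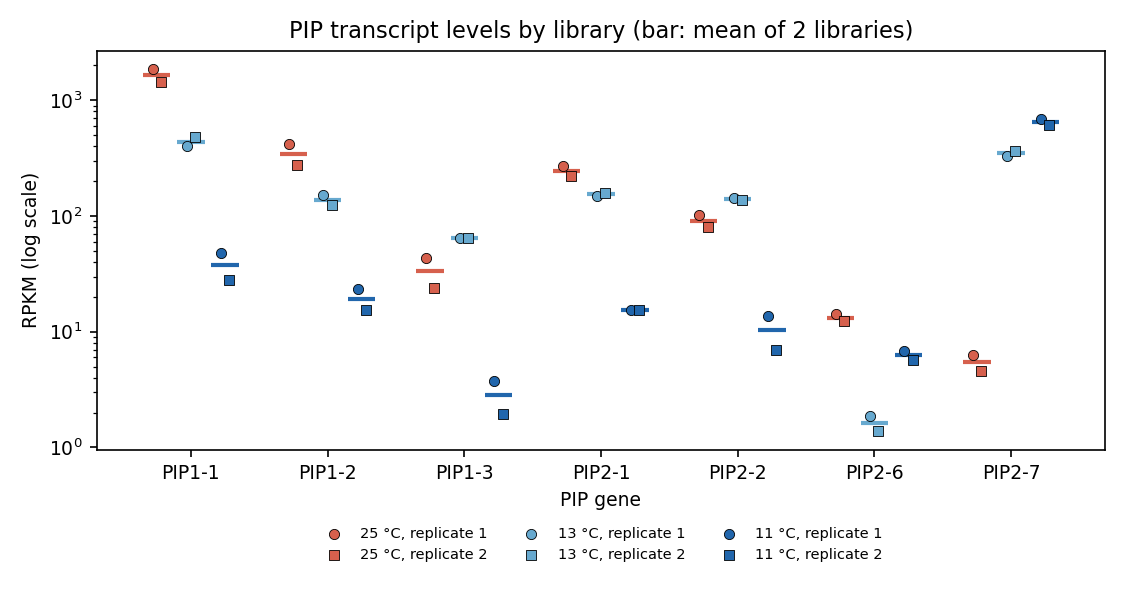
RPKM of each PIP gene on a log axis, 1 point per library (circle, replicate 1; square, replicate 2) with the mean of the 2 libraries of a temperature as a bar. PIP2-7 runs from 4.59 RPKM at 25 °C to 688 RPKM at 11 °C, opposite to PIP1-1.

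PIP1-1 (LOC_Os02g44630, chromosome 2, 27044319 to 27047453) lies at coordinates printed, as for the genes below, as the table gives them, with no genome build named in the sources used here. Its level was 1867 and 1438 RPKM at 25 °C, 403 and 477 RPKM at 13 °C, and 48.0 and 27.9 RPKM at 11 °C. Every 11 °C library was below every 13 °C library, and those below every 25 °C library. By mean RPKM it ranked 21 among the 19438 tested loci at 25 °C, 124 at 13 °C and 2805 at 11 °C. It fell by 5.45 ± 0.31 (standard error) on the scale of log2(RPKM + 1) between 25 and 11 °C (limma, adjusted p = 1.73e-05), the fall ranked 12 among all tested loci, and by 1.9 ± 0.31 between 25 and 13 °C (adjusted p = 0.00171).

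PIP1-2 (LOC_Os04g47220, chromosome 4, 28046537 to 28048542) was at 416 and 276 RPKM at 25 °C, 152 and 124 RPKM at 13 °C, and 23.2 and 15.4 RPKM at 11 °C. Its means of 346 ± 99.4, 138 ± 19.2 and 19.3 ± 5.57 RPKM (SD, n = 2) put the 11 °C level 17.9-fold under the 25 °C level. The log2 difference was -4.09 ± 0.29 at 11 against 25 °C (limma, adjusted p = 3.82e-05) and -1.30 ± 0.29 at 13 against 25 °C (adjusted p = 0.00827). The latter narrowly missed the threshold without replicate 2 at 13 °C (adjusted p = 0.0503).

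PIP2-1 (LOC_Os07g26690, chromosome 7, 15406442 to 15409801), a PIP2-class water channel, had a profile close to that of PIP1-2, with a distance of 0.83 between their profiles of log2(RPKM + 1) over the 6 libraries, each centred on its mean. It was at 272 and 220 RPKM at 25 °C, 150 and 159 RPKM at 13 °C, and 15.5 and 15.3 RPKM at 11 °C. The step from 25 to 13 °C was small and the step from 13 to 11 °C large. The first was a log2 difference of -0.66 ± 0.21 (limma, adjusted p = 0.0347), which lost its call when any library other than replicate 2 at 25 °C was left out (adjusted p up to 0.179). The second was -3.25 ± 0.21 (adjusted p = 8.62e-05).

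PIP1-3 (LOC_Os02g57720, chromosome 2, 35349673 to 35351454), also known as RWC3 and studied in rice for its part in drought avoidance, was at 43.6 and 23.8 RPKM at 25 °C, 64.5 and 64.6 RPKM at 13 °C, and 3.75 and 1.93 RPKM at 11 °C. The last values rest on 99 and 56 reads. Between 13 and 11 °C it fell by 4.13 ± 0.34 (limma, adjusted p = 0.000184), 22.7-fold by means, and this fall ranked 38 among all tested loci. Its higher level at 13 than at 25 °C, a log2 difference of 0.98 ± 0.34, passed only just (adjusted p = 0.049), and was not called with TMM-type or quantile scaling (adjusted p = 0.162 and 0.0894) or when replicate 1 at 13 °C, replicate 2 at 13 °C or replicate 2 at 25 °C was left out (adjusted p = 0.127, 0.13 and 0.245). The last of these moved it to 0.56.

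PIP2-2 (LOC_Os02g41860, chromosome 2, 25162543 to 25166617) had the profile nearest to that of PIP1-3, at a distance of 0.60, the smallest of the 21 pairs of PIP genes. It was at 102 and 80.0 RPKM at 25 °C, 143 and 136 RPKM at 13 °C, and 13.6 and 6.96 RPKM at 11 °C. The 13 °C libraries were above both 25 °C libraries, but the log2 difference of 0.62 (95% interval -0.09 to 1.33) was not called (limma, adjusted p = 0.14). Between 13 and 11 °C PIP2-2 fell by 3.70 ± 0.31 (adjusted p = 0.000183), 13.6-fold by means.

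PIP2-6 (LOC_Os04g16450, chromosome 4, 8948206 to 8950028, the 1 member on the minus strand), which carries arsenite as well as water in heterologous assays, was at 14.2 and 12.3 RPKM at 25 °C, 1.88 and 1.38 RPKM at 13 °C, and 6.82 and 5.66 RPKM at 11 °C. It was the least abundant of the 7 at 13 °C, with 52 and 42 reads. The 11 °C libraries lay between those of the other temperatures. PIP2-6 fell by 2.44 ± 0.25 between 25 and 13 °C (limma, adjusted p = 0.00021), 8.12-fold by means, and was higher at 11 than at 13 °C by 1.46 ± 0.25 (adjusted p = 0.00325). Its difference of -0.98 ± 0.25 at 11 against 25 °C (adjusted p = 0.0124) was not called without replicate 2 at 11 °C (0.0847) or replicate 1 at 25 °C (0.061). At these low levels the sizes depend on the pseudocount: with 5 in place of 1 the log2 difference was -1.46 at 13 against 25 °C and 0.76 at 11 against 13 °C, both still called.

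PIP2-7 (LOC_Os09g36930, chromosome 9, 21310129 to 21311548), another PIP2-class channel, went the other way. It was at 6.32 and 4.59 RPKM at 25 °C (133 and 111 reads), 332 and 366 RPKM at 13 °C (7418 and 9037 reads), and 688 and 611 RPKM at 11 °C (15446 and 15125 reads). All 4 cold libraries were far above both warm ones, and the 11 °C libraries above the 13 °C libraries. By mean level it ranked 10838 among tested loci at 25 °C, 172 at 13 °C and 54 at 11 °C. It rose by 5.77 ± 0.22 between 25 and 13 °C (limma, adjusted p = 1.2e-05), or 64.0-fold, and its rise of 6.67 between 25 and 11 °C ranked 10 of all tested loci. The further difference of 0.90 ± 0.22 between 13 and 11 °C (adjusted p = 0.0171), or 1.86-fold, was not called when any library at 11 or 13 °C was left out (adjusted p = 0.0606 to 0.108), although it kept its direction.

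**Figure D3:**
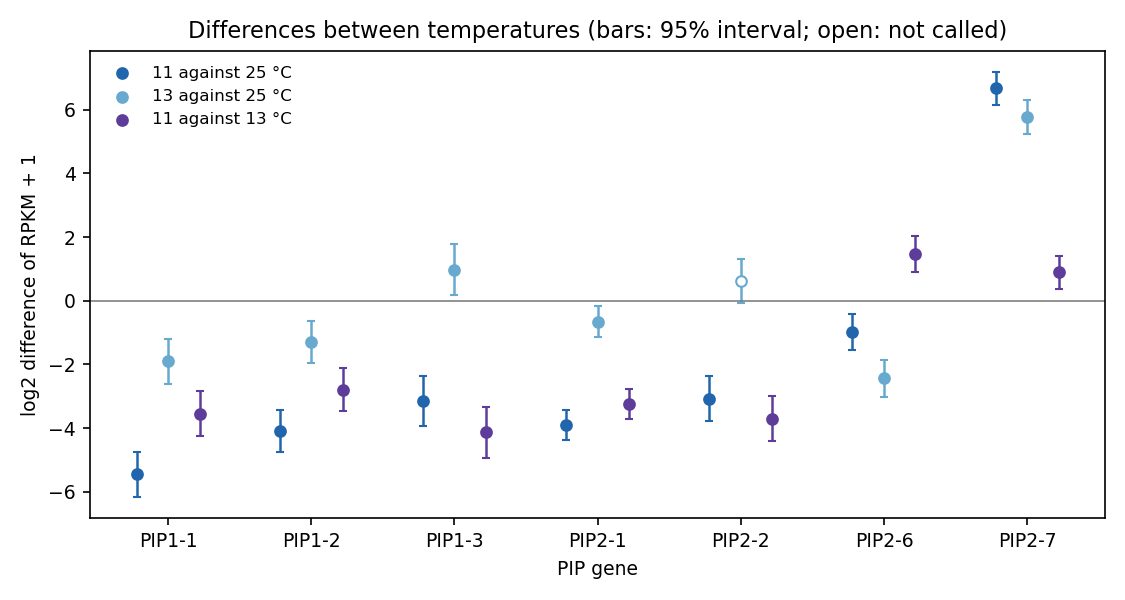
Differences of log2(RPKM + 1) for each PIP gene in the 3 comparisons, with 95% intervals from limma; filled points were called at an adjusted p below 0.05. At 11 against 25 °C 6 genes lie below 0 and PIP2-7 above it; the open point is PIP2-2 at 13 against 25 °C.

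Set against all genes, 6 of 7 PIP genes fell and 1 rose at 11 against 25 °C, where 21.4% of tested loci fell and 28.6% rose. The median log2 difference of the 7 was -3.15, beside 0.13 over all 19438 tested loci. At 13 against 25 °C 4 fell, 2 rose and 1 was not called, where 17.0% of loci fell and 26.3% rose, and the medians were -0.66 and 0.12. Without replicate 2 at 13 °C fewer loci were called, both among the PIP genes and among all tested loci. The log2 differences of PIP1-2, PIP2-1 and PIP1-3 at 13 against 25 °C were then -1.16, -0.70 and 0.98. At 11 against 13 °C 5 fell and 2 rose, where 18.2% of loci fell and 17.2% rose, and the medians were -3.25 and -0.02. The 11 and 13 °C comparisons with 25 °C share the 25 °C libraries and are not independent of each other. TMM-type scaling moved the median of all genes at 11 against 25 °C from 0.13 to -0.01 and at 13 against 25 °C from 0.12 to -0.03. With it the split of all calls at 11 against 25 °C changed from 4153 lower and 5566 higher to 5603 lower and 5625 higher, and quantile scaling gave 5695 lower and 5482 higher. The split at 13 against 25 °C changed from 3299 lower and 5115 higher to 4963 lower and 5122 higher with TMM-type scaling, and quantile scaling gave 4921 lower and 4895 higher. No PIP gene changed direction under either scaling.

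**Figure D4:**
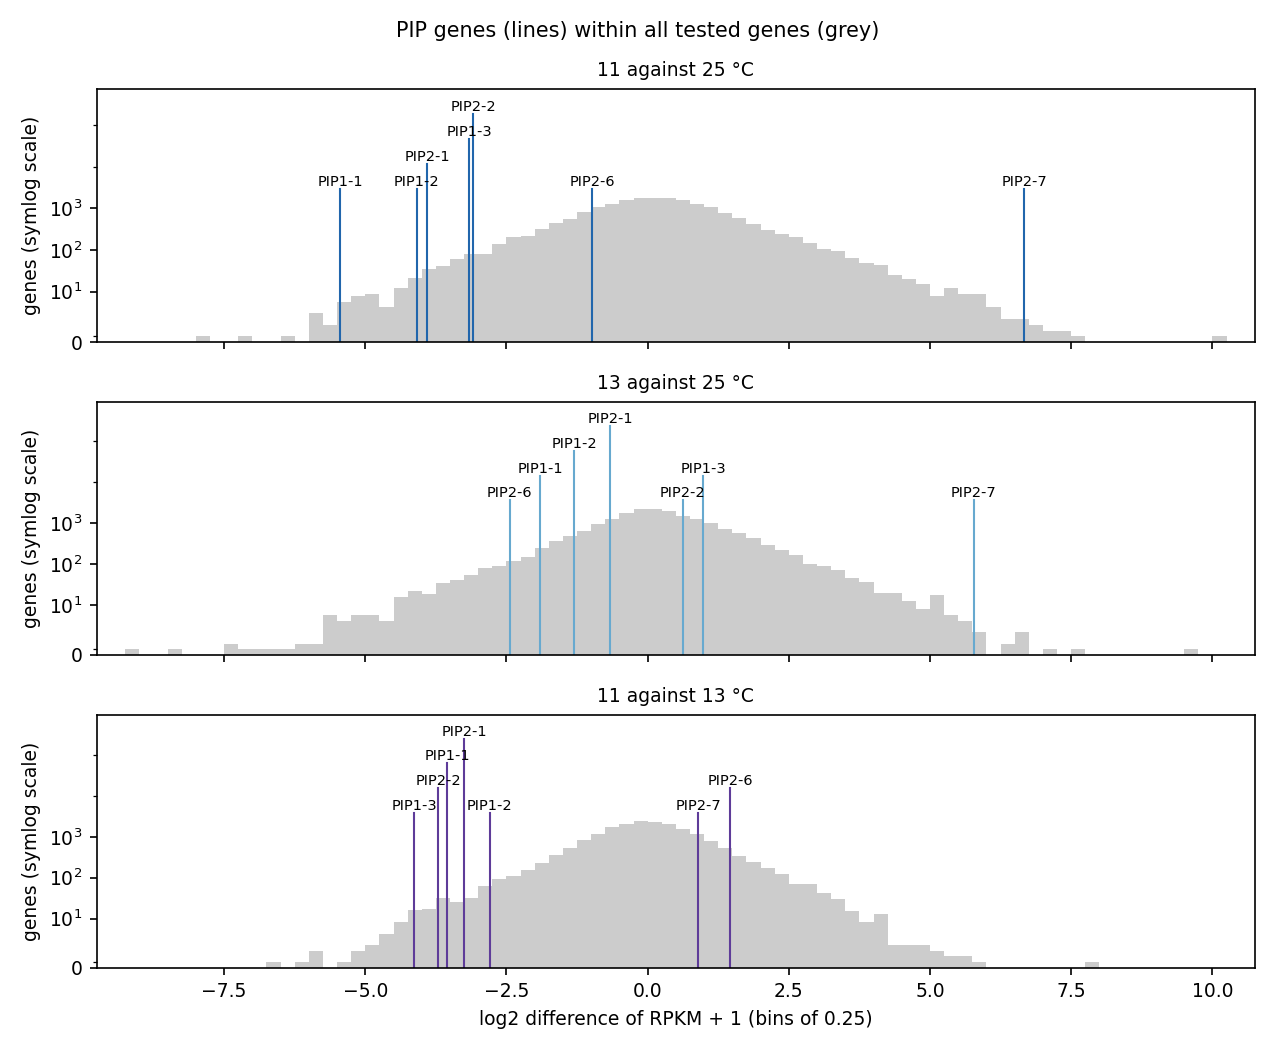
Histograms of the log2 difference over all 19438 tested loci (grey, bins of 0.25, counts on a symlog axis) with each PIP gene as a line whose height has no meaning, for the 3 comparisons. PIP1-1 and PIP2-7 lie in opposite tails at 11 against 25 °C, and 5 PIP genes lie in the lower tail at 11 against 13 °C.

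The order of the genes by level changed with temperature. RPKM is a level per length, so the genes can be ranked. At 25 °C the order of means was PIP1-1, PIP1-2, PIP2-1, PIP2-2, PIP1-3, PIP2-6 and PIP2-7, and the neighbours PIP1-2 (346 ± 99.4 RPKM) and PIP2-1 (246 ± 37.0 RPKM) were close, with the lower library of PIP1-2 at 276 RPKM and the higher of PIP2-1 at 272 RPKM. At 13 °C PIP1-1 (440 ± 52.2 RPKM) and PIP2-7 (349 ± 24.0 RPKM) led. PIP2-1 (155 ± 6.64 RPKM), PIP2-2 (140 ± 4.58 RPKM) and PIP1-2 (138 ± 19.2 RPKM) followed at like levels, with the libraries of PIP1-2 spanning those of PIP2-2. At 11 °C PIP2-7 (650 ± 54.1 RPKM) was followed at a distance by PIP1-1 (37.9 ± 14.2 RPKM), and PIP1-2 and PIP2-1 overlapped at 15.3 to 23.2 RPKM. PIP1-3 was last at 11 °C with 2.84 ± 1.29 RPKM. Reads of close paralogs may be shared between PIP loci, since the treatment of reads with several matches is not stated in the sources used here.

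Among genes outside the aquaporin family, those with a profile over the 6 libraries nearest to PIP1-1 were taken from 13441 described loci by the same distance. They were LOC_Os07g28040, described as O-methyltransferase ZRP4 (distance 0.69, mean 187 RPKM at 25 °C and 2.15 RPKM at 11 °C), LOC_Os03g62670, a probable thiol methyltransferase 2 (0.83), LOC_Os03g16670, an uncharacterized protein (0.85), LOC_Os10g28360, a dioxygenase of the methionine salvage type (0.86), and LOC_Os01g08440, a crocetin glucosyltransferase match (0.95). Nearest to PIP2-7 were LOC_Os01g21120, the ethylene-responsive factor ERF071 (0.83), LOC_Os02g40510, the clock gene PRR1 (0.84, mean 1.31 RPKM at 25 °C, 80.7 RPKM at 13 °C and 163 RPKM at 11 °C), LOC_Os06g04510, the glycolytic enzyme enolase 1 (0.90), LOC_Os04g57880, a subunit of the enzyme that attaches N-glycans to proteins (0.91), and LOC_Os02g53400, the chloroplast thioredoxin-like 3-1 (0.94). With 6 libraries in 3 groups such nearness describes these libraries only.

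The other aquaporins, taken by the word in the description, comprised 25 loci, of which 17 passed the filter. At 11 against 25 °C 11 of the 17 fell, 3 rose and 3 were not called. At 13 against 25 °C 5 fell, 5 rose and 7 were not called, and at 11 against 13 °C 6 fell, 3 rose and 8 were not called. The median log2 difference of the 17 was -1.15 at 11 against 25 °C, 0.19 at 13 against 25 °C and -0.24 at 11 against 13 °C. Over all tested loci 21.4% fell and 28.6% rose at 11 against 25 °C, and 17.0% fell and 26.3% rose at 13 against 25 °C. At 11 against 13 °C the shares were 18.2% and 17.2%. Of the 17, 5 passed the filter through the libraries of 1 temperature only (PIP2-4 and PIP2-5 at 13 °C, NIP4-1 and NIP1-2 at 25 °C, and the NIP3-3 locus LOC_Os08g05600 at 11 °C), so that a difference from that temperature is built into the filter, and the counts are a description. Among the other 12, 8 fell and 2 rose at 11 against 25 °C, 3 fell and 3 rose at 13 against 25 °C, and 4 fell and 2 rose at 11 against 13 °C. NIP2-1 is among those lower at 11 °C. It was below 1 RPKM in both 11 °C libraries and passed through those at 13 and 25 °C, so the filter bears on its falls too. Of these 12, the genes called in all 3 comparisons were TIP4-1 and TIP1-2. TIP4-1 (LOC_Os05g14240), a channel of the vacuolar membrane class, was ordered like PIP2-7, at 6.84 ± 1.45 RPKM at 25 °C, 93.5 ± 3.16 at 13 °C and 155 ± 18.0 at 11 °C. Its log2 difference at 13 against 25 °C was 3.60 ± 0.22 (limma, adjusted p = 2.8e-05). TIP1-2 (LOC_Os01g74450), of the same class, was ordered like PIP1-3 and PIP2-2, at 57.9 ± 20.4 RPKM at 25 °C, 152 ± 30.1 at 13 °C and 13.0 ± 1.54 at 11 °C. It was higher at 13 than at 25 °C by 1.41 ± 0.29 (adjusted p = 0.00536) and lower at 11 than at 13 °C by a log2 difference of -3.44 ± 0.29 (adjusted p = 0.000196).

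**Figure D5:**
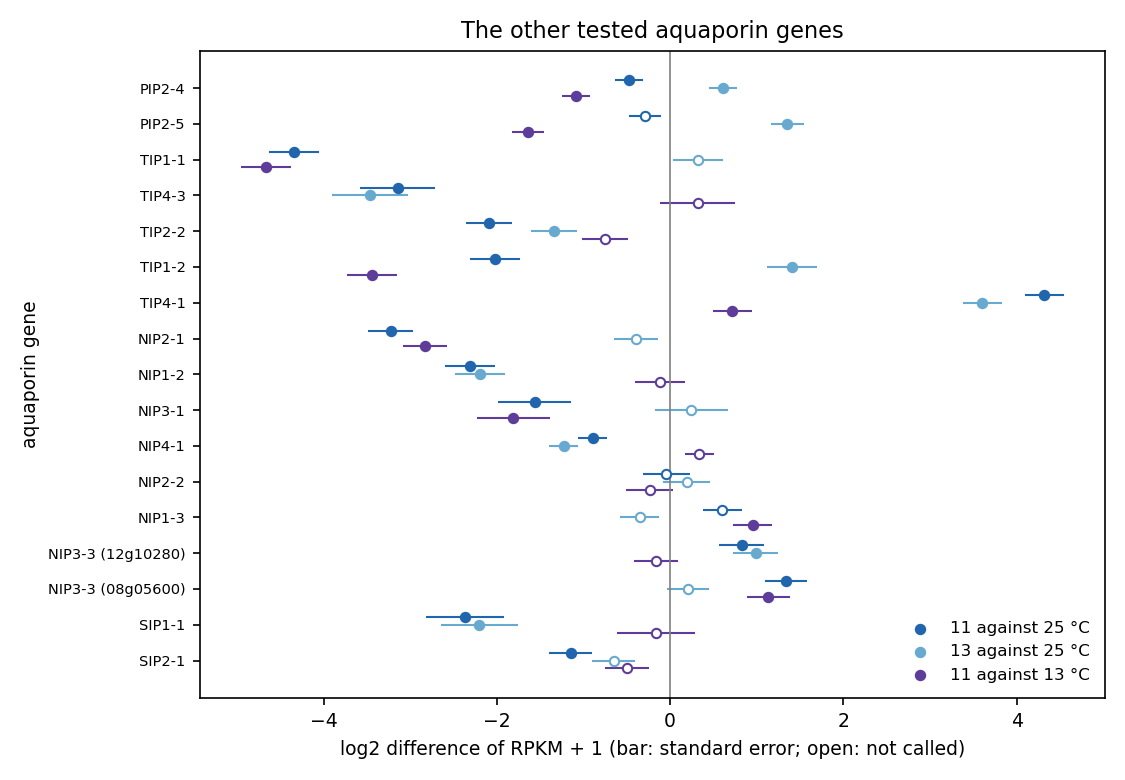
Log2 differences of the 17 other tested aquaporin genes, by class (PIP, TIP, NIP, SIP), with standard errors; open points were not called. At 11 against 25 °C 11 genes lie below 0 as called falls, and TIP4-1 lies farthest above 0 at 4.32. Of those 11, 3 are among the 5 genes that passed the filter through 1 temperature only.

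Root-type transcripts were scarce, and their sum was lower at 11 °C than at 13 or 25 °C, whose ranges overlapped. Of 6 root markers, 2 passed the filter, and the list summed to 0.796 and 0.859 RPKM at 11 °C, 13.6 and 13.8 RPKM at 13 °C, and 13.2 and 18.6 RPKM at 25 °C. Most of it was the silicon channel gene Lsi1 (described as NIP2-1 and also counted among the other aquaporins). Lsi1 was at 0.668 to 0.814 RPKM at 11 °C, 10.9 to 11.9 RPKM at 13 °C and 12.9 to 18.1 RPKM at 25 °C. It was not called at 13 against 25 °C (limma, adjusted p = 0.253). The other marker that passed was PIP2-5, itself a PIP gene, and only through the 13 °C libraries. PIP2-5 was at 1.74 and 2.55 RPKM at 13 °C beside 0.163 and 0.284 RPKM at 25 °C. The overlap of the summed ranges at 13 and 25 °C rests on PIP2-5. Lsi2 and NRT2.1 were listed at 0 in all 6 libraries, RCc3 was at 0 in 5 of them, and PIP2-3 reached at most 0.388 RPKM. Of 3 markers of dividing cells, 2 passed, and they went opposite ways. PCNA was at 1.88 and 2.13 RPKM at 11 °C beside 4.26 and 5.18 RPKM at 25 °C, while CDKB2-1 was at 8.24 and 9.85 RPKM at 11 °C beside 0.283 and 0.493 RPKM at 25 °C. Their list summed to 10.1 and 11.98 RPKM at 11 °C, 5.16 and 5.58 RPKM at 13 °C, and 4.54 and 5.68 RPKM at 25 °C. The part of these lists, or of the green leaf level given above, in the PIP results was not tested.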

How the data were processed

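RNA sequencing of 6 shoot libraries (3 temperatures, 2 libraries each) was analysed from the authors' deposited table of RPKM values, 1 column per library. Alignment used TopHat2 2.0.12, per the submitters' processing notes. The sources used here name no counter, annotation, genome build or strand setting. Group and replicate came from the sample titles. Loci with at least 1 RPKM in at least 2 libraries were tested as log2(RPKM + 1), which understates changes of low genes, with limma 3.58.1 in R 4.3.3. All 6 libraries entered 1 model with a mean-variance trend, and p-values were adjusted by Benjamini-Hochberg over all 19438 tested loci, with calls at an adjusted p below 0.05. The members and gene lists were chosen with earlier results of these data known. Named genes are all members, aquaporins called in all 3 comparisons (at most 5 of them), and the 5 described genes nearest in profile to PIP1-1 and to PIP2-7. Fold changes are ratios of mean RPKM.

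Library totals were recovered from the smallest step of RPKM times length at loci whose span equals their length. Read numbers of the 7 genes are the whole numbers, within 0.02 in all 6 libraries, at the smallest gene length that gives them. The totals recovered were 15.96 to 18.75 M reads, and counting error is the least error these numbers carry. Loci written in upper case (23650, including PIP2-8) have no value above 0 in a replicate 2 library. The model was tested on simulated data of independent libraries with few changed genes. That does not test the calls where same-numbered libraries deviate together. Alternatives covered pseudocount, filter, scaling, trend, libraries in the fit, the replicate number as a term and leaving out each library. Sequences and promoters were not used here.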

Additional observations from a re-analysis of the deposited data

How the results depend on the processing

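At 11 against 25 °C the higher count (1 PIP gene) was the same in every alternative run and the lower count (6) was 5 to 6 when a library was left out. The 2 PIP genes higher at 13 than at 25 °C became 1 with a pseudocount of 0.1, with no filter, with TMM-type scaling, with quantile scaling and with no mean-variance trend, PIP1-3 being the gene lost. Leaving out 1 library gave 2 to 4 lower and 1 to 2 higher at 13 against 25 °C, and 5 lower and 1 to 2 higher at 11 against 13 °C. A group left with 1 library was assumed to vary like the others. In fits of the 4 libraries of a comparison alone, PIP2-1 at 13 against 25 °C was not called (adjusted p = 0.0756). No PIP difference changed sign in any alternative, including within replicate 1 or replicate 2 alone, which was chosen after seeing the data.

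With a mean RPKM of at least 5 fewer genes were tested, 12224 in place of 19438, so the counts below are out of a smaller total. All genes then gave 2683 lower and 3537 higher at 11 against 25 °C. They gave 2226 lower and 3142 higher at 13 against 25 °C, and 2092 lower and 2146 higher at 11 against 13 °C. The other aquaporins gave 8 lower and 1 higher at 11 against 25 °C. They gave 3 lower and 2 higher at 13 against 25 °C, and 4 lower and 1 higher at 11 against 13 °C. TMM-type scaling gave 4963 lower at 13 against 25 °C; the cause was not tested.

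Labels share replicate numbers without saying what they mark. Replicate 1 deviations from the group mean correlated across genes at 0.61 to 0.71 between temperatures, but 2 numbers do not show a pairing. The replicate 1 columns are written with more digits, and no locus written in upper case is above 0 in a replicate 2 column. The part of this in the correlation was not tested. With a replicate block all genes gave 5861 lower and 7618 higher at 11 against 25 °C, out of the same 19438 tested loci. The split was 5099 lower and 7129 higher at 13 against 25 °C, and 5781 lower and 5570 higher at 11 against 13 °C. PIP2-2 at 13 against 25 °C was then called (limma, adjusted p = 0.0285). No other PIP call changed under the block.

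Leaving out 1 library gave ranges for the other counts. Other aquaporins were 7 to 10 lower and 1 to 3 higher at 11 against 25 °C, 3 to 5 lower and 2 to 5 higher at 13 against 25 °C, and 3 to 7 lower and 0 to 3 higher at 11 against 13 °C. All genes were 2840 to 3941 lower and 3313 to 5320 higher at 11 against 25 °C, 2025 to 3123 lower and 2929 to 4906 higher at 13 against 25 °C, and 1499 to 3667 lower and 1451 to 3480 higher at 11 against 13 °C.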

Other observations

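PIP2-1 has close neighbours of its own class on chromosome 7: PIP2-4 (15358960 to 15360495) and PIP2-5 (15376916 to 15378292), all on the plus strand. In the RefSeq annotation of assembly ASM3414082v1, 0 other protein-coding genes start between neighbours of this row. Both were near the limit of detection and were chosen after their values were seen, except that PIP2-4 was also named by the rule. PIP2-5 was at 0.163 and 0.284 RPKM at 25 °C (3 and 6 reads), 1.74 and 2.55 RPKM at 13 °C (34 and 55 reads), and had 0 reads in both 11 °C libraries, where 3 reads would have been 0.153 and 0.139 RPKM. PIP2-4 was at 0.333 and 0.455 RPKM at 25 °C, 1.25 and 1.01 RPKM at 13 °C (28 and 25 reads), and likewise had 0 reads at 11 °C. Both passed the filter only through the 13 °C libraries, where they are highest, so their levels are given here as a description. They entered the fit and the counts of the other aquaporins, but a difference from 13 °C is built into the filter. PIP2-1 differed from both in having its highest level at 25 °C; that difference between genes was not tested.

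SIP1-1 (LOC_Os01g08660), an aquaporin of the small basic class also chosen after its values were seen, was at 254 and 84.3 RPKM in the 25 °C libraries, a wider gap than at 13 °C (32.0 and 30.2 RPKM) or 11 °C (30.5 and 25.0 RPKM).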
